A study of Drosophila melanogaster with 22 samples.

Results

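The genes of the proteasome subunits were taken from a Drosophila melanogaster expression array. A gene was included if its current symbol begins with Rpn or Rpt and a digit, or with Prosalpha or Prosbeta, and if a probe set was assigned to it alone. This gave 40 genes with 1 probe set each, of 11983 genes with such a probe set. Of these, 12 encode subunits of the catalytic core particle (Prosalpha2 to Prosalpha7 and Prosbeta2 to Prosbeta7). A further 7 encode the base of the regulatory particle (Rpn1, Rpn2, Rpn13, Rpt2, Rpt3, Rpt4 and Rpt5), and 7 encode its lid (Rpn3, Rpn5, Rpn6, Rpn7, Rpn8, Rpn11 and Rpn12). The other 14 carry a symbol that ends in T or R with or without a digit, which marks paralogs known in the fly mainly from the testis. Prosbeta1, Rpt1, Rpt6, Rpn9 and Rpn10 were not analysed here, and a probe set shared by Prosalpha1 and Prosalpha1R was left out because it names 2 genes.

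The study removed components of the RNA exosome, a multi-subunit machine that digests RNA inward from the 3′ end, from S2 cells, an embryonic fly line with macrophage-like properties. Double-stranded RNA was added at 30 µg per ml on days 0, 1 and 3, cells were lysed on day 5, and biotin-labelled RNA prepared from 6 µg of total RNA went onto 1 Affymetrix array per sample. The depletions were of the exosome core (Csl4, Rrp4 and Rrp40 of its cap, and Mtr3, Rrp46 and Ski6 of its ring), of the nuclease Dis3, of the nuclease Rrp6, and of Rrp47, a cofactor of Rrp6. Rrp4 had 4 arrays and the other 8 depletions 2 each. The control was 2 arrays of cells that received GFP double-stranded RNA, so every group received double-stranded RNA. By their titles the arrays of a depletion are biological replicates and the GFP arrays are numbered controls, but the labels do not say that the cultures were independent, so the p-values measure the spread between these arrays.

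The proteasome degrades proteins tagged with ubiquitin. The core particle is a barrel of stacked alpha and beta rings with the protease sites inside, and the beta rings carry the proteolytic subunits. The base unfolds substrates with its ring of Rpt ATPases, and the lid removes ubiquitin through the metalloprotease Rpn11. Cells are known to adjust the transcripts of the subunits together, and in flies the factor cnc, a relative of the mammalian Nrf factors, takes part in that response. The arrays measure steady-state RNA, so a change in synthesis cannot be told apart from a change in decay.

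Values below are log2 signals after quantile normalization of the deposited intensities, so they compare arrays for 1 probe set and never 1 probe set with another. A gene is called when limma's moderated test gives a Benjamini-Hochberg adjusted p under 0.05 over 9385 probe sets tested. The trimmed mean of the deposited signals was 500 on all 4 Rrp4 arrays and lay between 125.9 and 345.6 on the other 18, and the poly(A) spike-ins stood far below the hybridization spike-ins on the Rrp4 arrays only (log2 difference -4.87 to -2.44, against 0.66 to 2.24 elsewhere). The Rrp4 arrays therefore stand apart in their scaling and labelling controls. The transcript of the targeted gene was called lower in its own arrays for 2 of 9 depletions, higher for 4 and not called for 3, so the array did not check most labels, and whether a probe set lies within its double-stranded RNA is not known here. Of 11 hemocyte markers, chosen for the origin of the line, 9 were bright enough to test, with mean log2 signals from 5.53 (ItgaPS4) to 13.11 (vkg). Hml and srp were at 11.39 and 10.97, and Hml ran from 7.85 in Dis3 2 to 13.34 in Rrp4 3. NimC1 (4.29) and Sr-CI (3.98) were below the filter. Bright enough among the measured markers of other cells were 2 of 3 for neurons, 1 of 3 for muscle and 2 of 3 for germ cells, with tud at 10.57. Of 6 testis markers 1 was bright enough, and dj was at the floor on 17 arrays.

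All 26 subunits gave signals far above the floor in every array. Their mean log2 signals lay between 10.70 and 11.62 for the core particle, between 9.94 and 10.81 for the base, and between 10.06 and 11.18 for the lid, and no subunit reached the floor of 1.69 on any of the 22 arrays. Mean log2 signals of the paralogs lay between 1.78 and 6.08, close to the floor for many. Only 3 of 14 paralogs passed the brightness filter of 4.67: Prosalpha4T2 (mean 4.70), Prosbeta2R1 (5.27) and Rpt3R (6.08). Prosbeta5R1 (mean 1.84) sat at the floor on 18 arrays, Prosalpha6T (1.78) on 16 and Prosbeta5R2 (2.03) on 14. The remaining paralogs below the filter were Prosalpha3T (mean 4.13), Prosalpha4T1 (2.49), Prosbeta2R2 (2.75), Prosbeta4R1 (3.28), Prosbeta4R2 (2.69), Rpn12R (3.32), Rpn13R (2.45) and Rpt4R (3.63).

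Averaged over the 9 depletions against GFP, the proteasome subunits were close to 0 on average. The median log2 difference of the 26 subunits was -0.003, against -0.03 over all probe sets tested, with 13 subunits above 0 and 13 below. Of these, 3 genes were called among the 29 members tested, while 21.9% of all probe sets were called (11.6% higher and 10.3% lower). Prosbeta3, a structural beta-ring subunit, and Rpn5, a scaffold subunit of the lid, rose, and Rpn6, the lid subunit that clamps the lid to the core particle, fell. The 9 depletions share the same 2 GFP arrays, so their differences from GFP are not independent of each other.

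**Figure D1:**
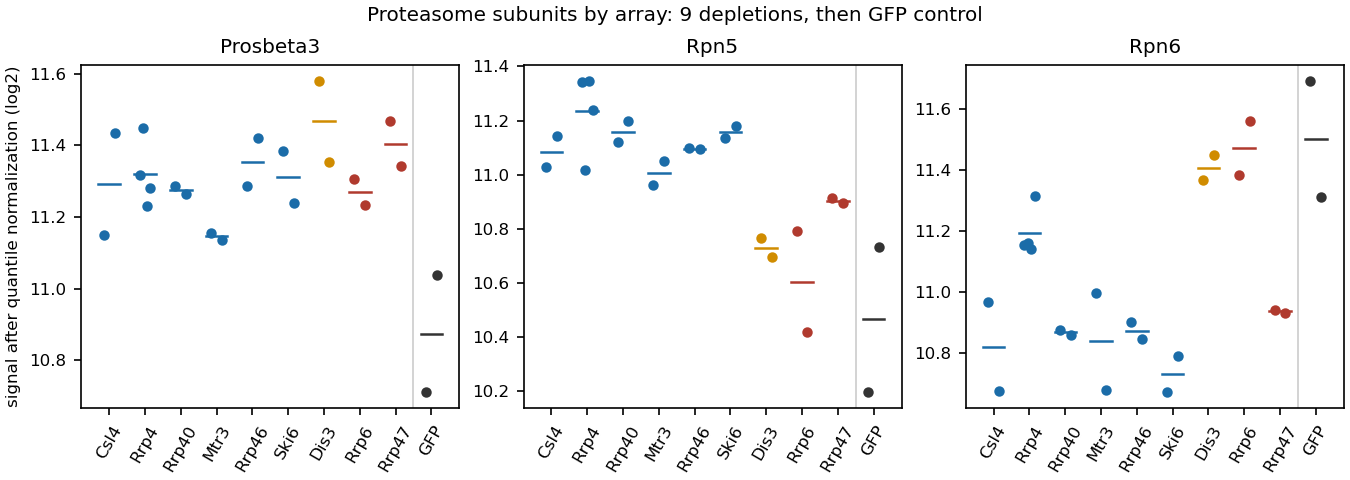
Log2 signal of Prosbeta3, Rpn5 and Rpn6 on every array (points) with group means (lines), for the 9 depletions and, at the right, GFP. All 20 depletion arrays of Prosbeta3 lie above both GFP arrays, 18 of 20 do for Rpn5, and 15 of 20 Rpn6 arrays lie below both GFP arrays.

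Prosbeta3 had log2 signals of 11.15 and 11.43 in Csl4 depletion, 11.32, 11.45, 11.23 and 11.28 in Rrp4, 11.29 and 11.27 in Rrp40, 11.16 and 11.13 in Mtr3, 11.28 and 11.42 in Rrp46, and 11.38 and 11.24 in Ski6. It had 11.58 and 11.35 in Dis3 depletion, 11.31 and 11.23 in Rrp6, and 11.47 and 11.34 in Rrp47, against 10.71 and 11.04 in GFP. No depletion array overlapped GFP. The difference was 0.44 ± 0.10 (SE; adjusted p = 0.00265, limma), and Prosbeta3 was called higher in 7 single depletions, all but Mtr3 and Rrp6.

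Rpn5 had 11.03 and 11.14 in Csl4 depletion, 11.34, 11.02, 11.35 and 11.24 in Rrp4, 11.12 and 11.20 in Rrp40, 10.96 and 11.05 in Mtr3, 11.10 and 11.09 in Rrp46, and 11.13 and 11.18 in Ski6. It had 10.77 and 10.70 in Dis3, 10.79 and 10.42 in Rrp6, and 10.91 and 10.89 in Rrp47, against 10.20 and 10.74 in GFP. Every array of an exosome core depletion was above both GFP arrays, but the second Dis3 array and the second Rrp6 array lay within the GFP range. The difference over all depletions was 0.53 ± 0.12 (adjusted p = 0.003), and Rpn5 was called higher in the 6 exosome core depletions, by 0.54 in Mtr3 to 0.77 in Rrp4.

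Rpn6 had 10.97 and 10.68 in Csl4 depletion, 11.15, 11.16, 11.14 and 11.31 in Rrp4, 10.88 and 10.86 in Rrp40, 10.997 and 10.68 in Mtr3, 10.90 and 10.85 in Rrp46, and 10.67 and 10.79 in Ski6. It had 11.37 and 11.45 in Dis3 depletion, 11.38 and 11.56 in Rrp6, and 10.94 and 10.93 in Rrp47, against 11.69 and 11.31 in GFP. Dis3 and Rrp6 arrays lay within the GFP range, and so did 1 Rrp4 array. The difference over all depletions was -0.48 ± 0.10 (adjusted p = 0.00232), and Rpn6 was called lower in 6 depletions, all but Rrp4, Dis3 and Rrp6, with the lowest value in Ski6 (-0.77 ± 0.14, adjusted p = 0.000659).

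The 3 overall calls rest on the first GFP array, which is the lowest array of all for Prosbeta3 and Rpn5 and the highest for Rpn6. Without it none of the 3 was called (Prosbeta3 0.28, Rpn5 0.26 and Rpn6 -0.29, adjusted p = 0.163, 0.243 and 0.166), while without the second arrays of Csl4, Dis3 and Rrp6 8 members were called, 4 in each direction, where 18.5% of all probe sets were called higher and 17.2% lower.

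Single depletions gave few member calls, near or below the share of all probe sets called. Of 29 members tested, Csl4 depletion gave 5 higher and 1 lower, where 9.18% and 9.38% of all probe sets were called (18.6% in all). Rrp4 depletion gave 3 higher and 2 lower (12.5% and 11.3%, 23.8% in all). Rrp40 gave 2 higher and 1 lower (10.9% and 9.44%, 20.3% in all), Mtr3 1 higher and 2 lower (10% and 8.85%, 18.9% in all), and Rrp46 2 higher and 1 lower (10.5% and 9.25%, 19.8% in all). For Ski6 the calls were 2 higher and 2 lower (12% and 10.8%, 22.7% in all). Dis3 depletion gave 3 higher and none lower (11% and 10.2%, 21.2% in all), Rrp6 depletion 1 higher and none lower (4.27% and 4.55%, 8.82% in all), and Rrp47 depletion 4 higher and 2 lower (10.3% and 10.2%, 20.5% in all). As a share of the members tested, these counts run from 3.45% in Rrp6 to 20.7% in Csl4 and Rrp47. Changes were small: the subunit differences in single depletions ran from -0.77, a 1.71-fold decrease, to 0.77, a 1.71-fold increase. Of the 26 subunits 13 were never called in a single depletion against GFP, and the matching share of all probe sets was not computed.

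**Figure D2:**
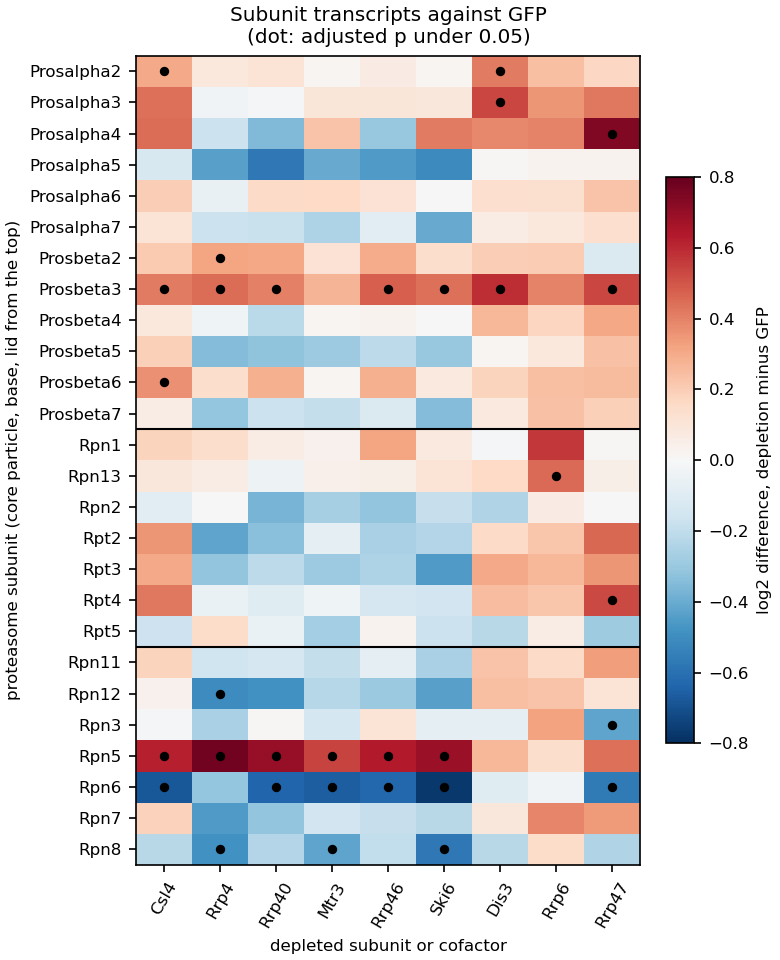
Log2 difference from GFP (colour) of 26 proteasome subunits (rows: core particle, base and lid from the top) in each of 9 depletions (columns); dots mark adjusted p under 0.05, and differences are relative to the other genes on each array. The called squares concentrate in 4 rows, Prosbeta3 (7 dots), Rpn5 (6), Rpn6 (6) and Rpn8 (3).

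In the core particle, apart from Prosbeta3, calls were few and all upward. The alpha-ring subunit Prosalpha2 rose in Csl4 (0.30 ± 0.10) and Dis3 depletion (0.41 ± 0.10), Prosalpha3 in Dis3 (0.54 ± 0.15), and Prosalpha4 in Rrp47 (0.74 ± 0.25). Prosalpha4 had 11.35 and 11.25 in Rrp47 arrays, against 10.84 and 10.28 in GFP, so its 2 control arrays differed from each other by 0.56. The beta-ring subunit Prosbeta6 rose in Csl4 depletion (0.37 ± 0.11). Of the proteolytic subunits, Prosbeta2, which carries the trypsin-like site, rose in Rrp4 depletion alone (0.32 ± 0.11), and Prosbeta5, which carries the chymotrypsin-like site, was called in no depletion.

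Prosbeta5 is given in full as a proteolytic subunit without a call. It had 11.72 and 12.03 in Csl4, 11.39, 11.43, 11.29 and 11.26 in Rrp4, 11.36 and 11.37 in Rrp40, 11.60 and 11.19 in Mtr3, 11.53 and 11.43 in Rrp46, and 11.38 and 11.39 in Ski6 depletion. It had 11.39 and 12.01 in Dis3, 11.57 and 11.98 in Rrp6, and 11.96 and 11.88 in Rrp47 depletion, against 11.77 and 11.60 in GFP. The Rrp4, Rrp40, Mtr3, Rrp46 and Ski6 arrays lay at or below the lower GFP array, while the 2 Dis3 arrays lay on either side of them.

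In the base 2 genes were called. Rpn13, a ubiquitin receptor, rose in Rrp6 depletion (0.45 ± 0.13, adjusted p = 0.0381), with 10.999 and 10.83 in Rrp6 arrays, against 10.55 and 10.38 in GFP. The ATPase Rpt4 rose in Rrp47 depletion (0.53 ± 0.16, adjusted p = 0.0263), with 10.70 and 10.58 in Rrp47 arrays, against 10.01 and 10.22 in GFP. Neither pair of depletion arrays overlapped GFP.

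In the lid, Rpn8, the partner of Rpn11 in the deubiquitinating pair, fell in Rrp4 (-0.48 ± 0.12), Mtr3 (-0.42 ± 0.14) and Ski6 depletion (-0.57 ± 0.14). It had 10.19, 10.31, 10.13 and 10.40 in Rrp4 arrays, 10.40 and 10.24 in Mtr3, and 10.15 and 10.18 in Ski6, against 10.84 and 10.63 in GFP, with no overlap. Without GFP 1 none of these 3 falls was called (Rrp4 -0.38, Mtr3 -0.32 and Ski6 -0.46, adjusted p = 0.129, 0.276 and 0.0847), and the Mtr3 call was also lost without either Mtr3 array and the Ski6 call without Ski6 1 (-0.55, adjusted p = 0.0515). The structural lid subunit Rpn12 fell in Rrp4 depletion (-0.51 ± 0.18) and Rpn3, another scaffold subunit, in Rrp47 (-0.42 ± 0.13). Rpn11 and Rpn7 were not called in any depletion.

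Among the paralogs, Rpt3R, a relative of the ATPase Rpt3, was called higher in Csl4 (1.19 ± 0.36) and Rrp47 depletion (1.32 ± 0.36). It had 6.89 and 6.83 in Csl4 arrays and 6.87 and 7.11 in Rrp47 arrays, against 5.57 and 5.76 in GFP. Its parent gene Rpt3 had 10.84 and 11.28 in Csl4 arrays and 11.19 and 11.03 in Rrp47 arrays, against 10.93 and 10.59 in GFP, and was called in neither. Cross-hybridization between the relatives was not tested.

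Which array was left out mattered in every single depletion. Each call of Prosalpha2, Prosalpha3, Prosalpha4, Prosbeta2, Prosbeta6, Rpn3, Rpn12, Rpn13, Rpt4 and Rpt3R against GFP was lost without at least 1 array of the groups compared. Without GFP 1 the number of member calls fell in every single depletion, and so did the share of all probe sets called. Both also fell in Csl4 without Csl4 2, in Dis3 without GFP 2 and in Ski6 without Ski6 1. In Rrp40, Mtr3, Rrp46 and Rrp47 both fell without either array of the depletion. The count was 3 in Rrp4 without Rrp4 1, 2 or 4, where 19.7%, 19.1% and 18.7% of all probe sets were called. Both rose in Dis3 without Dis3 1 and in Rrp6 without Rrp6 1. The rise of Prosbeta3 lost its call in all 7 depletions without GFP 1, and the rise of Rpn5 in 5 of 6. The fall of Rpn6 lost its call without GFP 1 in 4 of 6, namely Mtr3 (-0.47, adjusted p = 0.056), Rrp40 (-0.44, 0.074), Rrp46 (-0.44, 0.0797) and Rrp47 (-0.37, 0.105), and was still called in Csl4 and Ski6. It was also lost in Mtr3 without Mtr3 2 and in Rrp47 without either Rrp47 array.

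The directions above are relative to the other genes on each array. In the deposited values, with no scaling added here, the median of all probe sets itself moved, by 0.46 over all depletions and by up to 1.58 in Rrp4. The split of member calls moved with it: 18 higher and 0 lower over all depletions, and 28 and 0 in Rrp4. It was 25 and 0 in Mtr3 (median shift 0.97), 23 and 0 in Ski6 (1.02), and 21 and 0 in Rrp47 (0.59). Of all probe sets, 43.6% were then called higher over all depletions, 93.7% in Rrp4, 70.2% in Mtr3, 72.3% in Ski6 and 41.4% in Rrp47. The split was 1 and 2 in Rrp40 (7.98% higher and 6.29% lower of all probe sets) and 1 and 1 in Rrp46 (10.5% and 4.25%). It was 0 and 2 in Dis3 (6.15% and 12.2%), 0 and 0 in Rrp6 (1.89% and 5.63%), and 9 and 1 in Csl4 (18.1% and 3.32%). With median centring it was 1 and 1 in Csl4 (6.16% and 8.88%), Rrp40 (9.33% and 5.54%) and Mtr3 (12.9% and 4.24%). It was 2 and 0 in Rrp4 (15.1% and 3.81%) and in Dis3 (13.3% and 5.91%). The split was 0 and 1 in Rrp46 (8% and 7.71%), 1 and 2 in Ski6 (12.1% and 6.76%) and 0 and 0 in Rrp6 (2.08% and 5.66%). Rpn8 in Rrp4, Mtr3 and Ski6, Rpn6 in Mtr3 and Ski6, Rpn12 in Rrp4 and Rpn3 in Rrp47 were above GFP as deposited, though still below the median of all genes. The trimmed mean of the deposited signals was 500 on all 4 Rrp4 arrays, so the Rrp4 shift includes any scaling to that value before deposit. Whether the shift in deposited signal is a change in total RNA or in scaling was not tested.

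The subunits differed among the 9 depletions about as often as other genes did. The F test over the depletion groups, which does not use the GFP arrays' level, called 17 of 29 members, 58.6%, against 57.7% of all probe sets. Rpn6 had the largest F of the members (F = 8.07, adjusted p = 0.00128), then Rpn3 (F = 6.14, adjusted p = 0.00381) and Rpn7 (F = 5.725, adjusted p = 0.00498). The other members called were Prosalpha2, Prosalpha3, Prosalpha4, Prosbeta4, Prosbeta5 and Prosbeta7 in the core particle, Rpt2, Rpt3 and Rpt4 in the base, Rpn5, Rpn8, Rpn11 and Rpn12 in the lid, and the paralog Rpt3R. All 7 lid subunits were thus among them, with 6 of 12 in the core particle and 3 of 7 in the base. Without the 4 Rrp4 arrays 5 members were called, and with median centring 10, against 28.7% and 54.6% of all probe sets.

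Correlations of the group means between subunits are given as a description only, and the median r of other gene pairs was not computed. Over the 9 depletion means, which share arrays, normalization and total signal, Rpt3 and Rpn11 had the highest Pearson r, 0.98. Prosalpha5 and Rpn12 had an r of 0.97. The median r between pairs was 0.56 within the core particle, 0.40 within the base and 0.36 within the lid, and 0.42 to 0.47 between these classes, so pairs from different particles were about as alike as pairs from the base or the lid. A few subunits ran against the rest: the median r with the other 25 was -0.64 for Rpn5, -0.42 for Prosbeta2 and -0.20 for Rpt5. The genes most like Rpn6 by the same measure were CG6051 (r = 0.96), APC10 (0.95) and CG33228 (0.95). Those most like Rpn3 were PIG-Wa (0.93), Idgf2 (0.93) and Oatp33Ea (0.92), and those most like Rpn7 were Coq6 (0.99), Lamtor3 (0.98) and CG14787 (0.98).

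More members were called in the comparison between depletion of the exosome core and depletion of Rrp6 or its cofactor Rrp47 than in any comparison with GFP. Relative to the other genes on each array, most subunit transcripts were lower in the exosome core depletions: the median difference of the 26 subunits was -0.27 (0.11 as deposited, where the median of all probe sets was 0.45), against -0.04 over all probe sets tested and -0.004 over the 1730 tested probe sets at least as bright as the dimmest subunit, and 23 of 26 subunits were below 0. Of the 29 members 18 were called, against 38.9% of all probe sets, and 17 of these were lower (58.6% of the members, against 19.8% of all probe sets). They were 7 of 12 core particle subunits, 5 of 7 in the base and 5 of 7 in the lid. Rpn5 alone was called higher, where 19.1% of all probe sets were. Csl4 stood apart within the exosome core. Against GFP the median of the 26 subunits was 0.18 in Csl4 and between -0.16 (Ski6) and -0.08 (Rrp46) in the other exosome core depletions.

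**Figure D3:**
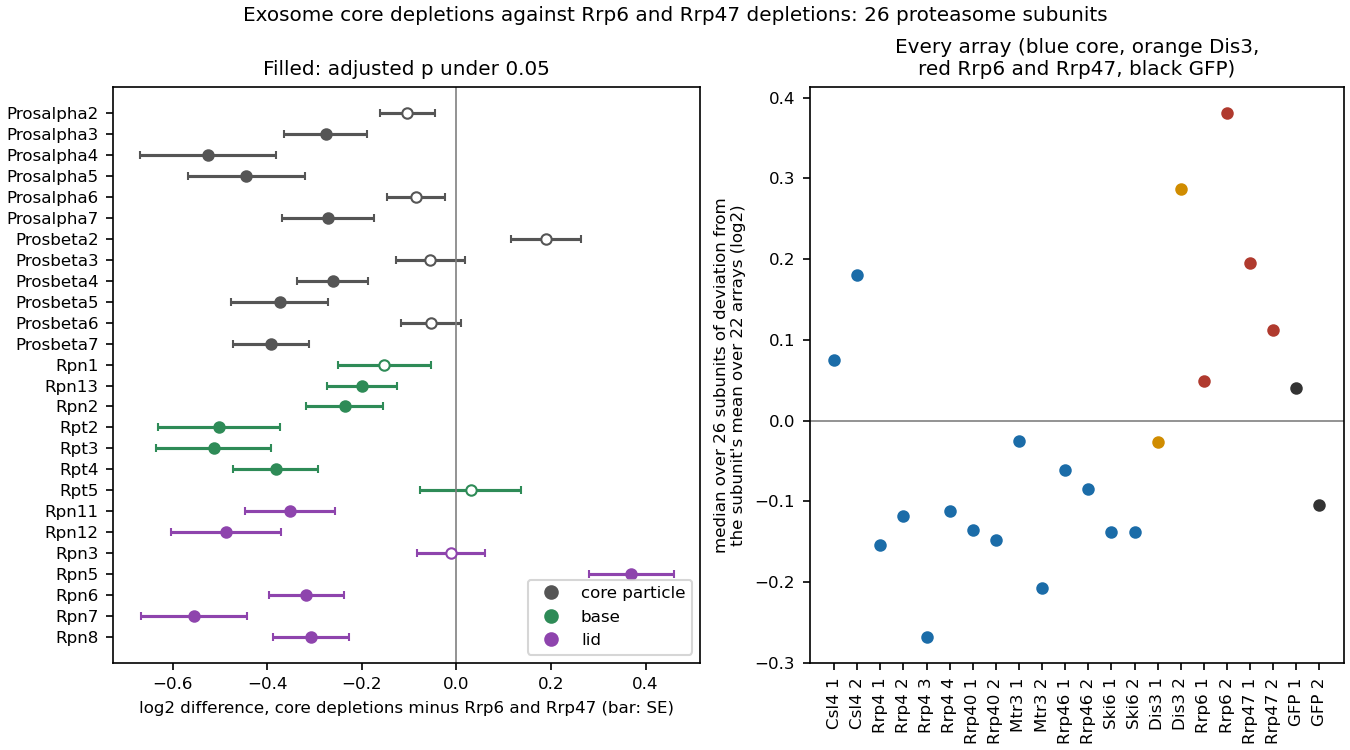
Left, log2 difference of each subunit between the 6 exosome core depletions and the Rrp6 and Rrp47 depletions, with its SE; filled points have adjusted p under 0.05, and as deposited the median of the 26 is 0.11 in place of -0.27. Right, for every array, the median over 26 subunits of the deviation from each subunit's mean of the 9 depletion group means (not over 22 arrays, as the axis label says). On this scale 12 of 14 exosome core arrays lie between -0.27 and -0.02 and the 2 Csl4 arrays at 0.07 and 0.18. The 4 Rrp6 and Rrp47 arrays lie between 0.05 and 0.38.

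Rpn7, a scaffold subunit of the lid, had the largest difference among the members. In the 14 exosome core arrays its lowest, median and highest log2 signals were 9.96, 10.25 and 10.86, against 10.69 and 11.14 in Rrp6 arrays and 10.94 and 10.79 in Rrp47 arrays. Of the exosome core arrays 13 lay below all 4 of those arrays, all but Csl4 2. The difference was -0.55 ± 0.11 (SE; adjusted p = 0.00162, limma), a 1.47-fold decrease.

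In the core particle the largest decrease was that of Prosalpha4, with 10.08, 10.46 and 11.34 as lowest, median and highest exosome core signals, against 10.70 and 11.20 in Rrp6 and 11.35 and 11.25 in Rrp47 (-0.52 ± 0.14, adjusted p = 0.0101). Prosalpha5 (-0.44 ± 0.12), Prosbeta7 (-0.39 ± 0.08) and Prosbeta5 (-0.37 ± 0.10) followed. Prosbeta7 had 11.30, 11.47 and 11.78 in exosome core arrays, against 11.72 and 12.15 in Rrp6 and 11.96 and 11.81 in Rrp47. For this subunit 12 of 14 exosome core arrays lay below the 4 others, all but the Csl4 arrays. Prosalpha3, Prosalpha7 and Prosbeta4 were called with differences between -0.28 and -0.26. Prosbeta2 ran the other way at 0.19 without a call.

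In the base, the ATPases Rpt3 (-0.51 ± 0.12), Rpt2 (-0.50 ± 0.13) and Rpt4 (-0.38 ± 0.09) fell, with Rpn2 (-0.24) and Rpn13 (-0.20). Rpt3 had 10.29, 10.50 and 11.28 as lowest, median and highest exosome core signals, against 10.78 and 11.27 in Rrp6 and 11.19 and 11.03 in Rrp47. Of 14 exosome core arrays, 12 lay below those 4, all but the Csl4 arrays. Rpt5, another ATPase of the same ring, had a difference of 0.03 and was not called.

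In the lid, Rpn12 (-0.49 ± 0.12), Rpn11 (-0.35 ± 0.09), Rpn6 (-0.32 ± 0.08) and Rpn8 (-0.31 ± 0.08) fell beside Rpn7. Rpn12 had 9.62, 9.86 and 10.55 in exosome core arrays, against 10.22 and 10.69 in Rrp6 and 10.27 and 10.40 in Rrp47. Rpn5 had 10.96, 11.13 and 11.35 in exosome core arrays, against 10.79 and 10.42 in Rrp6 and 10.91 and 10.89 in Rrp47, so all 14 exosome core arrays lay above the 4 others (0.37 ± 0.09, adjusted p = 0.00514).

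The count of subunits called here changed most without 1 of 2 arrays: 4 without Rrp6 2 (Prosbeta7, Rpt4, Rpn6 and Rpn7, all lower, with a median of the 26 subunits of -0.21, where 17.2% of all probe sets were called and 7.82% were lower) and 9 without Rrp47 1 (8 lower, median -0.23, where 22.2% were called and 10.6% were lower). Other arrays mattered for single subunits: of the 18 fits that leave out 1 array of the groups compared, the call of Rpn13 was lost in 15, that of Prosalpha7 in 11 and that of Rpn2 in 5, and those of the other subunits in at most 2. Against Rrp47 alone 13 members were called, 11 lower and 2 higher, where 26.3% of all probe sets were called and 13.4% were lower. Against Rrp6 alone 11 were called, 10 lower and 1 higher, where 30.5% were called and 14.7% were lower. As deposited the median of all probe sets was 0.45 higher in the exosome core depletions and the member calls were 8 higher and 0 lower (57.4% and 0.863% of all probe sets), with Prosalpha3, Prosalpha7, Prosbeta4, Rpn2, Rpn13, Rpt4, Rpn6, Rpn8 and Rpn11 on the higher side but below that median; with median centring they were 1 higher and 11 lower (23.9% and 7.73% of all probe sets). The 3′ to 5′ log2 difference of the actin control ran from 0.21 to 0.99 in the exosome core arrays, against 0.10 to 0.28 in Rrp6 and Rrp47 arrays, and the 18S ribosomal RNA probes from 6.48 to 13.77, against 10.14 to 12.89. Their part in the result was not tested.

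Against Dis3 depletion the exosome core depletions were also lower for most subunits, with fewer calls. Of 29 members 7 were called, 24.1%, against 24.8% of all probe sets: 6 lower (12.7% of all probe sets) and Rpn5 higher (0.39 ± 0.12; 12.1%). The lower ones were Rpn12 (-0.56 ± 0.15), Rpn6 (-0.52 ± 0.11), Rpt3 (-0.50 ± 0.16), Prosalpha3 (-0.42 ± 0.12), Prosalpha2 (-0.32 ± 0.08) and Prosbeta4 (-0.28 ± 0.10). The median of the 26 subunits was -0.24, against -0.002 over all probe sets. Rpn6 had 10.67, 10.89 and 11.31 as lowest, median and highest exosome core signals, against 11.37 and 11.45 in Dis3, with no overlap.

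The 2 Dis3 arrays decided that count: without Dis3 2 no member was called and without Dis3 1 14 were, where 8.17% and 33.9% of all probe sets were called. Without the 4 Rrp4 arrays 3 were called (17.4% of all probe sets). As deposited the calls were 26 higher and 0 lower (76.9% and 0.714% of all probe sets), with the median of all probe sets 0.88 higher in the exosome core depletions, and the 6 lower members turned to the higher side while staying below that median; with median centring the calls were 0 higher and 5 lower (7.38% and 14% of all probe sets). Dis3 against Rrp6 and Rrp47 gave 0 calls among the members by limma, with 3 at an unadjusted p under 0.05, while 9.86% of all probe sets were called (4.73% higher and 5.13% lower); as deposited 17 were called lower, where 24.9% of all probe sets were, with the median of all probe sets at -0.38, and leaving out Dis3 2 or Rrp6 2 gave 1 call.

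Arrays of 1 group also differed from each other in these subunits. In the groups of 2 arrays, the median difference of the 26 subunits, second array minus first, was 0.32 in Rrp6, 0.26 in Dis3 and 0.15 in Csl4, and -0.21 in Mtr3 and -0.11 in GFP. It was between -0.10 and 0.01 in Rrp40, Rrp46, Rrp47 and Ski6. In Rrp6 the single differences ran from -0.63 for Rpt5 to 0.78 for Rpt2.

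**Figure D4:**
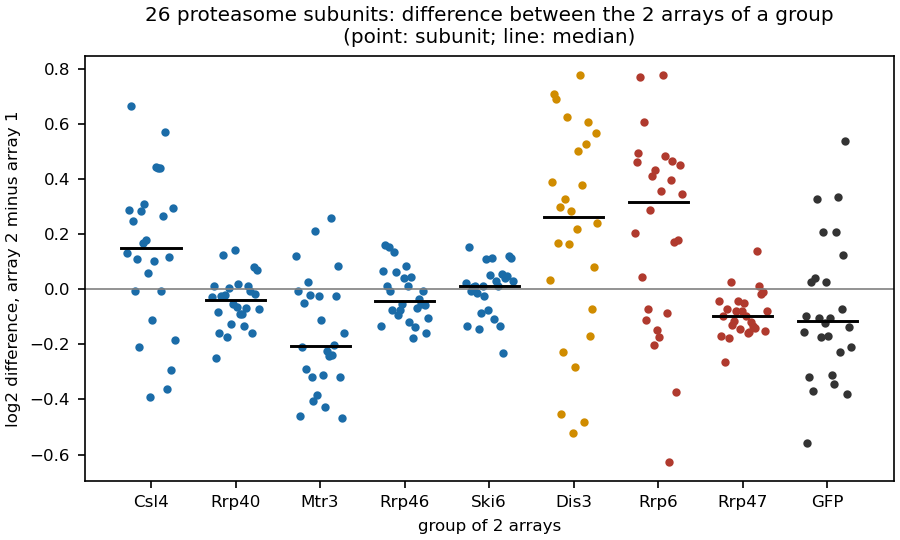
Log2 difference between the second and the first array of each group of 2, for 26 proteasome subunits (points) with the median (line). Dis3 and Rrp6 spread from about -0.5 or below to 0.78, while Rrp40, Rrp46, Rrp47 and Ski6 stay between -0.27 and 0.16.

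Prosalpha4, Prosalpha5, Rpt2 and Rpt3 were among the subunits with wide differences in these groups. Rpt3 had a difference of 0.78 in Dis3, 0.48 in Rrp6 and 0.44 in Csl4, against -0.34 in GFP. Across the 26 subunits these within-group differences had a Pearson r of 0.80 between Dis3 and Rrp6, 0.75 between Dis3 and Csl4, and -0.79 between Rrp6 and GFP, each over 26 genes that share 2 arrays a group and are not independent. Over all probe sets tested the same r was 0.41, 0.40 and -0.18. Rpt5 and Rpn5 ran against the others, at -0.63 and -0.37 in Rrp6 and 0.33 and 0.54 in GFP. Over all probe sets the median absolute difference was larger in the same groups, at 0.44 in Rrp6 and 0.41 in Dis3, against 0.12 to 0.15 in Rrp40, Rrp46, Rrp47 and Ski6.

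Lists of genes not found by the symbol rule above were set beside the subunits. Of 9 tested genes listed as regulators and assembly factors, 1 was called higher over all depletions and 2 lower, where 11.6% and 10.3% of all probe sets were. That list also holds Sem1, itself a small lid subunit, and yata, which is not established here as a proteasome regulator. Usp14, a deubiquitinase that docks on the base, rose by 0.67 ± 0.08 (SE; adjusted p = 8.67e-06, limma). Its lowest, median and highest signals in the 20 depletion arrays were 10.35, 10.67 and 10.91, against 9.97 and 10.08 in GFP. No depletion array overlapped GFP, and Usp14 was called in all 9 single depletions, from 0.42 in Rrp6 to 0.86 in Ski6. Leaving out any 1 of the 22 arrays did not end the overall call, although the Rrp6 call was lost without GFP 1 (0.37) or Rrp6 2 (0.33).

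Pomp, the chaperone that helps assemble the core particle, was lower over all depletions (-0.56 ± 0.12, adjusted p = 0.00208) and was called lower in 6 single depletions, all of the exosome core. It had 9.33, 9.87 and 10.12 as lowest, median and highest signals in the 14 exosome core arrays, 10.15 and 10.47 in Dis3, 10.17 and 10.50 in Rrp6, and 10.23 and 10.06 in Rrp47, against 10.60 and 10.47 in GFP. All 14 exosome core arrays lay below both GFP arrays, although the Mtr3 call was lost without any 1 of the 4 Mtr3 and GFP arrays. The Rrp4 call was lost without GFP 1 (-0.49, adjusted p = 0.0902), and the Rrp46 call without GFP 1 (-0.61, adjusted p = 0.0542) or Rrp46 2 (-0.58, adjusted p = 0.0743). Against Rrp6 and Rrp47 the exosome core depletions differed by -0.40 ± 0.09 (adjusted p = 0.0032), and against Dis3 by -0.47 ± 0.12 (adjusted p = 0.00799), a call that was lost without Dis3 2 (-0.31, adjusted p = 0.263).

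PI31, a regulator that binds the core particle, fell over all depletions (-0.39 ± 0.09, adjusted p = 0.00542), and by most in Ski6 (-0.99 ± 0.13) and Mtr3 (-0.77 ± 0.13). It had 9.19 and 9.33 in Ski6 and 9.51 and 9.45 in Mtr3, against 10.39 and 10.12 in GFP. The overall falls of Pomp and PI31 were not called without GFP 1 (-0.49 and -0.26, adjusted p = 0.0633 and 0.203). As deposited, PI31 stood 0.03 above GFP over all depletions, and PI31 in Rrp4 and Mtr3 and Pomp in Rrp4, Mtr3 and Ski6 were above GFP. Pomp in the exosome core depletions was then 0.07 above Rrp6 and Rrp47 and 0.36 above Dis3. Each of these values was still below the median of all genes.

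**Figure D5:**
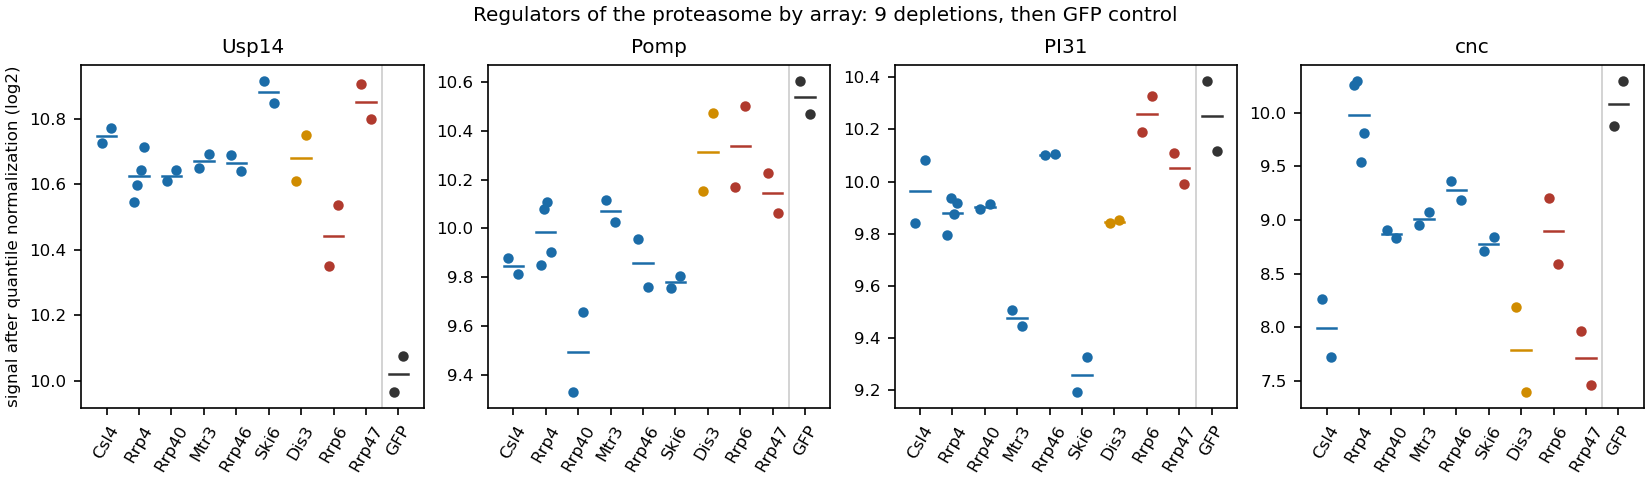
Log2 signal on every array (points) with group means (lines) of Usp14, Pomp, PI31 and cnc, for the 9 depletions and, at the right, GFP. Usp14 lies above GFP in all 20 depletion arrays, Pomp below it in 18, PI31 below it in 18 and cnc below it in 18, relative to the other genes on each array; as deposited PI31 averages 0.03 above GFP.

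The transcription factor cnc had the largest called difference over all depletions in these lists. Over all depletions it differed from GFP by -1.38 ± 0.22 (adjusted p = 0.000212), a call that no single array ended. It had 8.27 and 7.73 in Csl4 depletion, 10.26, 10.30, 9.54 and 9.81 in Rrp4, 8.91 and 8.84 in Rrp40, 8.95 and 9.07 in Mtr3, 9.37 and 9.19 in Rrp46, and 8.71 and 8.84 in Ski6. It had 8.20 and 7.39 in Dis3, 9.21 and 8.59 in Rrp6, and 7.97 and 7.46 in Rrp47, against 9.88 and 10.29 in GFP. Of the depletion arrays, 2 Rrp4 arrays alone overlapped GFP.

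It was called lower in 7 depletions: Rrp47 (-2.37 ± 0.30), Dis3 (-2.29 ± 0.30), Csl4 (-2.09 ± 0.30), Ski6 (-1.31 ± 0.30), Rrp40 (-1.21 ± 0.30), Rrp6 (-1.19 ± 0.30) and Mtr3 (-1.07 ± 0.30). In Rrp46 it stood at -0.81 and in Rrp4 at -0.11 without a call. The calls in Rrp40 and Mtr3 were lost without GFP 2 (-1.01 and -0.87) and without Rrp40 2 (-1.17), Mtr3 1 (-1.01) or Mtr3 2 (-1.13), and that in Rrp6 without GFP 2 (-0.98) or Rrp6 2 (-0.88). The exosome core depletions had more cnc than Dis3 (1.19 ± 0.23, adjusted p = 0.00118; 0.79 and not called without Dis3 2) and than Rrp6 and Rrp47 (0.68 ± 0.17, adjusted p = 0.00621; 0.52 and not called without Rrp6 2). The difference was 0.09 against Rrp6 alone and 0.48 without the 4 Rrp4 arrays, neither of them called.

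The list of cnc and genes that act with it or process such factors gave 4 calls of 11 tested over all depletions, all of them lower, where 10.3% of all probe sets were called lower. Beside cnc these were the ER-degradation gene Der-1 (-0.63 ± 0.15), the cnc inhibitor Keap1 (-0.63 ± 0.20) and the dimerization partner maf-S (-0.44 ± 0.13). All 3 lost their call without GFP 1 (adjusted p = 0.139, 0.433 and 0.277). Of 16 tested genes of ubiquitin and substrate delivery, casp, an adaptor with ubiquitin-binding domains, was called higher over all depletions (0.40 ± 0.13), where 11.6% of all probe sets were, and it was not called without either GFP array (adjusted p = 0.335 and 0.0531).

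Between the exosome core depletions and the Rrp6 and Rrp47 depletions these lists split in both directions, where 19.1% of all probe sets were called higher and 19.8% lower. Of the genes listed as regulators and assembly factors, 2 were called higher and 4 lower. The gene ntc, for an F-box protein known to bind PI31, rose by 0.38 ± 0.13. The gene yata, not established here as a proteasome regulator, rose by 0.23 ± 0.09. Pomp, PI31 (-0.39 ± 0.07), the activator REG (-0.39 ± 0.09) and Txl (-0.31 ± 0.11) were lower. Of the genes of ubiquitin and delivery, the shuttle factor Rad23 was called higher (0.45 ± 0.11) and 4 were called lower, among them p47 (-0.51 ± 0.13), Ufd1 (-0.40 ± 0.10) and Ubc7 (-0.31 ± 0.10). p47 and Ufd1 are known as cofactors of the segregase TER94, which was itself lower (-0.28 ± 0.07). In the list around cnc, Dref, a factor that binds promoters of growth genes, was higher (0.50 ± 0.12), and Der-1 (-0.46 ± 0.11) and Der-2 (-0.26 ± 0.07) were lower. Single arrays could overlap, as for p47 with 11.11 in Csl4 2 against 10.48 in Rrp6 1. Apart from Pomp and PI31, the calls named here were not recomputed with arrays left out or with values as deposited.

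The cytosolic chaperonin CCT, another large complex that is not part of this pathway, was set beside these values for scale. Over all depletions against GFP the median of its 8 subunits was 0.10. In the exosome core depletions 5 of 8 were called lower than in Rrp6 and Rrp47, with a median of -0.33, and 6 of 8 lower than in Dis3, with a median of -0.48, where 19.8% and 12.7% of all probe sets were called lower. CCT5 differed by -0.55 ± 0.13 in the first of these and by -0.73 ± 0.18 in the other. The CCT calls were not recomputed with arrays left out or with values as deposited. Whether the proteasome differs from CCT in these comparisons was not tested.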

How the data were processed

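RNA of 22 samples was measured on 1 Affymetrix array each. Intensities were deposited by the authors as 1 linear intensity per probe set, made with GCOS per the submitters' processing notes (version and scaling not given in the sources used here). Counts do not exist for arrays, so the number of arrays limits the precision. From these values 183 control probe sets were removed, the remaining 18769 were quantile-normalized, floored at their 10th percentile (3.23) and log2-transformed, and the brighter 9385 (mean log2 at least 4.67) were tested with limma 3.58.1 in R 4.3.3 (eBayes with trend, after lmFit), in 1 model over 10 groups, with Benjamini-Hochberg adjustment. Symbols came from the platform annotation, updated by gene number (13648 probe sets with 1 symbol, 401 with several, 4720 with none). The script was tested on simulated data. Figures were drawn with matplotlib.

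The members, pathway lists and comparisons were chosen with earlier results of these data known. Named with values were members called over all depletions or by the F test, the 4 highest and 4 lowest called members of each comparison, the proteolytic subunits, every paralog's level (the brightest and dimmest of each class as a range), and the 3 highest and lowest called genes of each pathway list. Alternatives varied the scaling, filter, floor, replicate block, array weights, groups fitted and arrays left out. Promoter and protein sequences were not used here. Each member had 1 probe set, so averaging several was not run.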

Additional observations from a re-analysis of the deposited data

Results flagged for a closer look

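In the only group with more than 2 arrays, Rrp4 depletion, each of the 40 members was tested for 1 array that lies far from the other 3, and 5 stood out. Such a test flags about 1 group in 20 by chance where values are not held at the floor. Where the other 3 arrays share the floor, any value above it is flagged. Rpn6 was at 11.31 on Rrp4 4, against 11.14 to 11.16 on the other 3 arrays, and this array lies within the GFP range. Prosalpha4T2 was at 3.35 on Rrp4 3, against 4.89 to 5.07 on the others. Prosalpha6T (2.11) and Prosbeta2R2 (4.11) were above the floor on Rrp4 3 alone, and Prosbeta4R1 was at 5.02 on Rrp4 1, against 1.69 to 1.70 on the others. Prosalpha6T, Prosbeta2R2 and Prosbeta4R1 were at or near the floor on the other Rrp4 arrays, so the chance rate does not hold for them. Prosalpha4T2 did not reach the floor on any array.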

How the results depend on the processing

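Each count of member calls was recomputed under 1 changed choice at a time. Percentages in parentheses are shares of all probe sets called in the same fit. With values as deposited it was 18 for all depletions against GFP (45.7%), 10 for Csl4 (21.4%), 28 for Rrp4 (93.8%) and 25 for Mtr3 (71.3%). It was 23 for Ski6 (73.5%), 0 for Rrp6 (7.51%) and 21 for Rrp47 against GFP. It was also 28 by the F test, 8 for the exosome core against Rrp6 and Rrp47, 26 against Dis3 and 17 for Dis3 against Rrp6 and Rrp47. With median centring it was 2 for Csl4 (15%), 2 for Rrp4 (18.9%), 1 for Rrp46 (15.7%), 0 for Rrp6 (7.74%) and 10 by the F test. Without the filter on dim probe sets, which adds dim probe sets to those adjusted over, it was 2 for Csl4 (7.96%), 3 for Rrp4 (9.68%) and 0 for Rrp6 (3.56%). With array weights it was 2 for Csl4 (9.88%), 0 for Dis3 (8.29%), 0 for Rrp6 (1.47%) and 1 for the exosome core against Dis3. With only the groups compared in the fit it was 0 for Csl4 (5.96%), 10 for Rrp4 (30.3%), 0 for Mtr3 (11.9%) and 1 for Rrp46 (15.8%). It was 2 for Ski6 (17.6%), 0 for Dis3 (4.25%) and 0 for Rrp6 (0.394%). Without the 4 Rrp4 arrays it was 5 by the F test and 3 for the exosome core against Dis3. With Rrp4 3 and 4 only it was 2 for Rrp4 (14.4%). Without the second Csl4, Dis3 and Rrp6 arrays it was 13 for Rrp4 (38.8%), 9 for Rrp40 (35%), 7 for Rrp46 (33.6%), 10 for Ski6 (35.3%) and 13 for Rrp47. That setting left 1 array each in Csl4, Dis3 and Rrp6, so counts that use these groups are left out here. The median difference of the 26 subunits from GFP was then 0.10 in Csl4, 0.01 in Dis3 and 0.11 in Rrp6. Chosen after seeing the data, the exosome core against Rrp6 alone gave 11, against Rrp47 alone 13, and without Csl4 20. The other counts stayed within 1.5 times. Without the second Csl4, Dis3 and Rrp6 arrays the share of all probe sets called rose with the count in Rrp4, Rrp40, Rrp46 and Ski6. Where no construction is named, the cause was not tested.

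The replicate numbers did not pair the arrays of most groups: of 90 same-numbered pairs 8 had a correlation of deviations over 0.1 (range -0.348 to 0.411). Of 22 arrays, 6 correlated best with their own number. Csl4, Dis3 and Rrp6 did share a pattern: r was 0.411 for Dis3 with Rrp6, 0.402 for Csl4 with Dis3 and 0.306 for Csl4 with Rrp6. GFP with Mtr3 was at 0.165, and Dis3 with Mtr3 at -0.348. With the replicate number as a block the count was 3 for Csl4 (16% of all probe sets called), 3 for Rrp4 (12.8%) and 2 for Rrp6 (6.56%). It was 3 for Rrp47, 11 by the F test and 4 for the exosome core against Dis3.

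Leaving out each array in turn gave 0 to 4 calls over all depletions, 1 to 7 for Csl4, 1 to 4 for Rrp4, 0 to 3 for Rrp40, 0 to 4 for Mtr3, 0 to 3 for Rrp46, 1 to 5 for Ski6, 1 to 7 for Dis3, 0 to 2 for Rrp6 and 0 to 5 for Rrp47. It gave 14 to 20 by the F test, 4 to 18 for the exosome core against Rrp6 and Rrp47, 0 to 14 against Dis3 and 0 to 1 for Dis3 against Rrp6 and Rrp47. A group left with 1 array was assumed to vary like the others. The share of all probe sets called also changed from fit to fit.

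For 118 results of single genes, 810 of 1070 values under the other alternatives kept direction and call, 228 lost the call and 32 changed sign; leaving out single arrays kept 1167 of 1360, and none changed sign. Of the sign changes 31 were values as deposited, all below the median of all genes. Over all depletions PI31 was then 0.029. Against GFP it was 1.21 for PI31, 0.99 for Pomp, 1.09 for Rpn12 and 1.05 for Rpn8 in Rrp4, 0.15 for PI31, 0.40 for Pomp, 0.16 for Rpn6 and 0.42 for Rpn8 in Mtr3, 0.14 for Pomp, 0.054 for Rpn6 and 0.29 for Rpn8 in Ski6, and 0.12 for Rpn3 in Rrp47. Against Rrp6 and Rrp47 the exosome core stood at 0.11 for Prosalpha3, 0.096 for Prosalpha7, 0.10 for Prosbeta4, 0.24 for Rpn13, 0.17 for Rpn2, 0.091 for Rpt4, 0.013 for Rpn11, 0.082 for Rpn6, 0.13 for Rpn8, 0.073 for Pomp and 0.10 for PI31. Against Dis3 it stood at 0.52 for Prosalpha2, 0.43 for Prosalpha3, 0.55 for Prosbeta4, 0.34 for Rpt3, 0.26 for Rpn12, 0.32 for Rpn6 and 0.36 for Pomp. The other was Rpn13 against Rrp47 alone, at 0.0019. Averaging several probe sets of a gene was not run, because each member had 1.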
